A study of Begonia x semperflorens-cultorum with 3 samples.

Results

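The transcripts described here are 206 of the 74779 assembled genes that were quantified in begonia leaves (Begonia x semperflorens-cultorum, a bedding plant, of the ecotype label Super Olympia). They were chosen by their measured counts, as those at least 16-fold higher at low temperature than in the control. Plants of the low-temperature library (LT) were kept at 15/5 °C. Plants of the control library (CK) were kept at 25/15 °C. Light was 300 μmol m-2 s-1 for both groups, and the title of the series names anthocyanin synthesis as its subject. A high-light library (HL; 25/15 °C, 500 μmol m-2 s-1) has its own set of assembled genes and is not used. Each library was made from poly-A RNA of 4 parallel samples mixed together, so that each condition has 1 library, the spread between plants cannot be measured and no p-value is given.

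Leaves of chilled plants are known to remodel their transcripts within the cold response, in which CBF transcription factors switch on genes for dehydrins, sugar synthesis and membrane lipid changes. Cold combined with light is also known to raise transcripts of the flavonoid pathway, whose enzymes lead by way of chalcone synthase and dihydroflavonol reductase to the red anthocyanins of begonia leaves. Whether the 206 transcripts belong to these groups was not tested, because the files list assembled genes by number and pair no number with a name or a sequence. The tissue label, leaf, could for the same reason not be checked against marker genes. In RNA of whole leaves, more cells of a type and more RNA per cell cannot be told apart.

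The expected counts, which are estimates of the reads of each gene, summed to 18836786 in LT and 17223244 in CK after rounding. A gene became a member when it had at least 50 counts in LT and at least 10 in CK, was at least 16-fold higher in LT, and had a mean scaled count below 10000. The fold was taken between counts scaled by the trimmed mean of M-values (TMM), with 1 count added to each. Of the 16888 genes past both count minimums, 206 (1.22%) met all of these conditions. Because the members were selected on their LT and CK values, the folds and levels below are a description of them. Another 7 genes passed the fold limit but lay above the limit of abundance, and with them 1.26% of the 16888 genes were at least 16-fold higher. The LT and CK values of a member belong to the same isoforms, since both files list the same isoforms for each gene. All 144 members with a single isoform also had equal lengths in both files. Of the 206 member numbers, 182 also occur in the HL file, and 80 of those had a single isoform in both files, but 0 of the 80 had the same length there, so no HL value is given for a member.

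In the control leaves the members were among the scarce transcripts past the minimums, and at low temperature most of them were among the abundant ones. Levels are given in TPM, which is the count per unit of effective length, scaled to the same sum in each library. The median level of the members was 99.3 TPM in LT and 2.21 TPM in CK. Over all 16888 genes the medians were 21.3 TPM in LT and 18.3 TPM in CK. By TPM the median rank of a member among the 16888 genes was 1682 in LT and 16315 in CK. In LT, 72 members stood among the 1000 genes of highest TPM, and in CK 0 of them did. At least 100 TPM was reached by 102 members (49.5%) in LT and by 0 in CK, and the highest CK level of a member was 51.4 TPM. All members together held 657755 counts in LT and 13616 in CK. That was 3.49% of the LT total (Clopper-Pearson 95% interval 3.48 to 3.50%) and 0.0791% of the CK total (0.0777 to 0.0804%). The intervals in this text cover counting error only. The 7 genes above the limit of abundance, all of a single isoform, held a further 1.39% of the LT total and 0.0315% of the CK total.

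**Figure D1:**
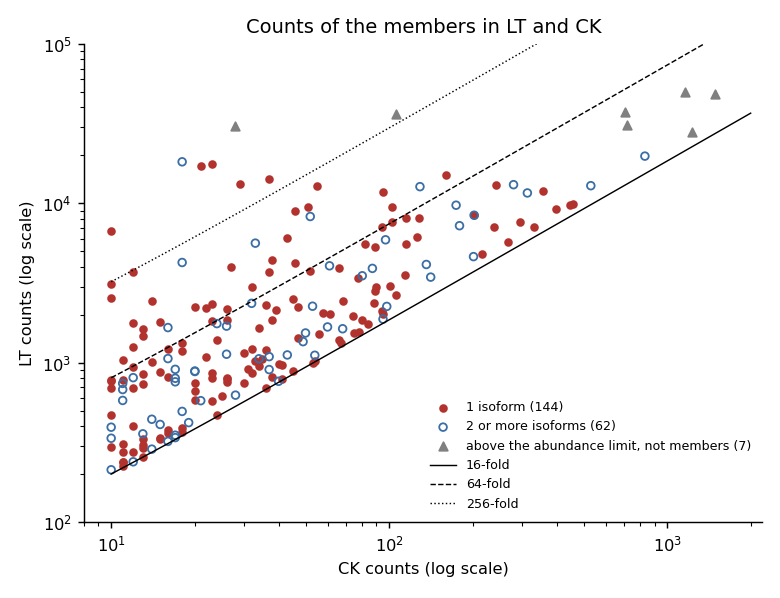
Counts of each member in LT (vertical axis, log scale) and CK (horizontal axis, log scale), with filled points for the 144 members of 1 isoform, open points for the 62 of several isoforms, triangles for the 7 genes above the limit of abundance, and lines at 16-, 64- and 256-fold. Members spread over 213 to 19790 counts in LT and 10 to 831 in CK, and the highest folds lie at the left, where CK has few counts.

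Within the limit of abundance, this share was spread over many members, though unevenly. The limit caps the counts of any member, so that this spread is in part set by the rule. The 7 genes above it held 261325 LT counts. The 10 most abundant members held 23.5% of the members' LT counts, and 28 members were needed for 50% of them. In CK the 10 most abundant held 31.2%, and 24 members made up 50%. The members' LT counts ran from 213 to 19790, with a median of 1526, and their CK counts from 10 to 831, with a median of 32.

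The folds of the members had a median of 31.1, and over all 16888 genes the median fold was 1.03. A fold of 16 to below 32 was held by 105 members, of 32 to below 64 by 61, of 64 to below 128 by 24, and of 128 or more by 16. Members with larger folds had both higher LT counts and somewhat lower CK counts, which follows in part from forming the classes on the ratio of these counts. The median LT count was 919 in the lowest of these 4 classes and 8608 in the highest, while the median CK count was 36 in the lowest and 22 in the highest. The 16 members of 128-fold or more held 22.6% of the members' LT counts, with a median level of 494.0 TPM in LT and 1.34 TPM in CK.

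The highest fold belonged to c34576.graph_c0, a gene of 6 isoforms with a length of 1549 bases in LT. LT held 18228 counts of it and CK held 18, or 804.1 TPM in LT and 0.84 TPM in CK, a log2 fold of 9.71 (exact 95% counting interval 9.12 to 10.53). It was followed by c37577.graph_c0, a single sequence of 1820 bases with 17220 LT counts and 21 CK counts. Its level was 639.8 TPM in LT and 0.84 TPM in CK, a log2 fold of 9.41 (8.86 to 10.17). The intervals of these folds overlap, so that their order is not resolved against counting error.

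The third place was taken by a short sequence of 529 bases, which also had the highest TPM of all members in LT. LT held 17557 counts of it and CK held 23, or 2616 TPM in LT and 3.59 TPM in CK, a log2 fold of 9.31 (8.79 to 10.03). The fourth, of 1730 bases, had 6714 LT counts and 10 CK counts, the lowest CK count that the rule allows. Its interval on the log2 scale, 8.31 to 10.25, was among the wider ones of the leading members. The fifth and the sixth, of 740 and 1386 bases, had 13300 and 14185 counts in LT, against 29 and 37 in CK. Places 7 to 10 had log2 folds between 7.64 and 7.97, with 2551 to 12884 counts in LT and 10 to 55 in CK. Of these 10 leading members, 9 were single sequences.

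Members of high abundance in LT were not all among the highest folds. The second highest level in LT, 1719 TPM, was that of a gene with 2 isoforms and 37.6 TPM in CK, 40.5-fold higher by counts. The member with the most counts in both libraries had 19790 LT counts and 831 CK counts, or 1621 TPM in LT and 51.4 TPM in CK, a fold of 20.6. This gene was the last inside the limit of abundance, with a mean scaled count of 9688, and the first outside had 13836. At the other end, the member of lowest TPM in LT had 7.33 TPM in LT and 0.29 TPM in CK, from 358 LT counts and 13 CK counts over a length of 3217 bases. The 5 members of lowest TPM in LT were each seen with 10 to 17 counts in CK.

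Counting error was large against the limit of 16-fold for the members of low count. The counting intervals are those of the ratio of scaled counts without the added count, which for each member is somewhat above the fold given. For 153 of the 206 members this whole interval lay at or above 16-fold, and for 53 it reached below. The lowest interval end of any member was 3.28 on the log2 scale, where 4 is the limit. The member just inside the limit had 256 LT counts and 13 CK counts, a fold of 16.02. The gene just outside had 1175 LT counts and 63 CK counts, a fold of 15.97. The 5 members next to the limit ran up to 16.24-fold and the 5 genes below it down to 15.82-fold, so that the limit cuts through a continuous range.

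**Figure D2:**
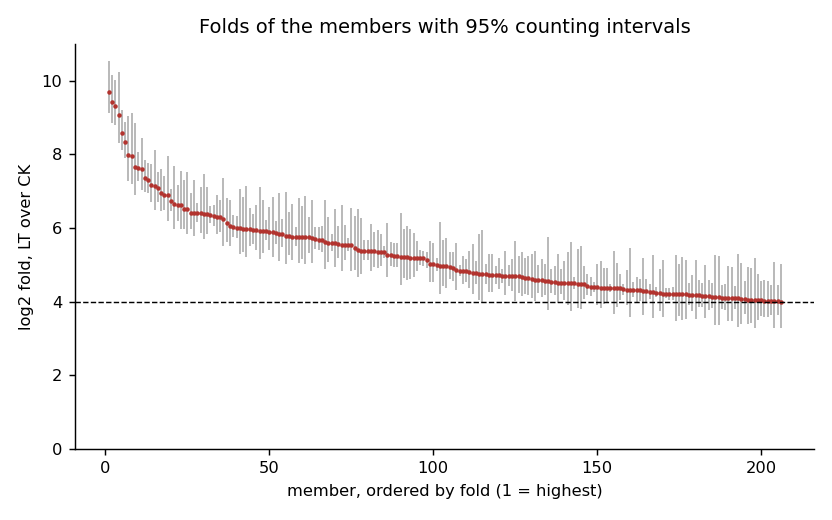
Log2 fold of LT over CK for each of the 206 members in order of fold (points), with the exact 95% counting interval as a grey line and the 16-fold limit as a dashed line. The points include the added count and the intervals leave it out. The folds fall steeply over the first members from 9.71 and then slowly to the limit at 4, where the intervals of 53 members reach below it.

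The minimum of 10 counts in CK left out more genes than it kept. With at least 50 counts in LT and a mean scaled count below 10000, the 16-fold limit was also passed by 88 genes of 5 to 9 CK counts and by 212 of 1 to 4. Another 193 genes were listed at 0 in CK, and their folds are set by the added count. Among the genes kept, the class with 10 to 19 counts in CK held 68 members of 294 genes (23.1%). The class of 300 or more in CK held 8 members of 8779 genes (0.0911%), each with 7088 or more counts in LT. The difference between these shares is in part set by the rule. The minimum of 50 counts in LT admits genes of few CK counts only where LT is higher. At high CK counts, the limit of abundance removes genes of high LT count.

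The members had fewer isoforms than other genes past the minimums. Of the 206, 144 (69.9%) had a single isoform in the assembly (exact 95% interval 63.1 to 76.1%), against 6597 of all 16888 genes (39.1%). Members with 10 or more isoforms numbered 8 (3.88%), against 13.97% of all genes. Put the other way, 2.18% of the single-isoform genes were members, 0.759% of the genes with 2 isoforms, 0.629% of those with 3 to 9, and 0.339% of those with 10 or more. The number of isoforms is related to abundance, and the members have low counts in CK. The comparison was therefore repeated within classes of the count. Among genes with 20 to 49 counts in CK, 52 of 67 members (77.6%) had a single isoform, against 591 of 1159 genes (51.0%). Among those with 10 to 19 the shares were nearer, at 44 of 68 members (64.7%) and 161 of 294 genes (54.8%). By LT count, the class of 1000 to 2999 had 50 single-isoform members of 67 (74.6%) and 1168 of 3147 genes (37.1%). In each of the 5 classes of LT count and the 5 of CK count the share was higher among the members.

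How the members' length compared with that of other genes depended on the abundance held equal. The median length of the members was 1111 bases (order-statistic 95% interval 1033 to 1253), against 1326 bases over all 16888 genes. Among single-isoform genes alone it was 1068 bases for members (898 to 1239) and 1024 bases for all (1004 to 1050), and these intervals overlap. Among multi-isoform genes it was 1276 bases for members (1040 to 1514) and 1495 bases for all (1476 to 1518), where the intervals also overlap. Single-isoform members were shorter than single-isoform genes of the same mean scaled count, with medians of 1083 and 1326 bases in the class of 300 to below 1000. In the class of 1000 to below 3000 the medians were 1161 bases for members and 1565 bases for all. By the count of a single library, over genes of any isoform number, the members were shorter in each of 5 classes of LT count. By CK count they were longer in 4 of 5 classes and shorter in that of 300 or more, with medians of 1479 bases for the 8 members there and 1683 bases for all. With 1000 to 2999 LT counts the medians were 1117 bases for members and 1796 bases for all, and with 20 to 49 CK counts they were 1103 and 714.7 bases. The longest member was a single sequence of 4371 bases with 1558 LT counts and 78 CK counts. The shortest, with 2 isoforms and 259 bases in LT, had 1131 LT counts and 26 CK counts. By length class, the members made up 0.816% of the genes under 500 bases and 1.65% of those of 500 to 999 bases. They were 1.33% of the genes of 1000 to 1999 bases and 0.680% of those of 2000 bases or more.

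**Figure D3:**
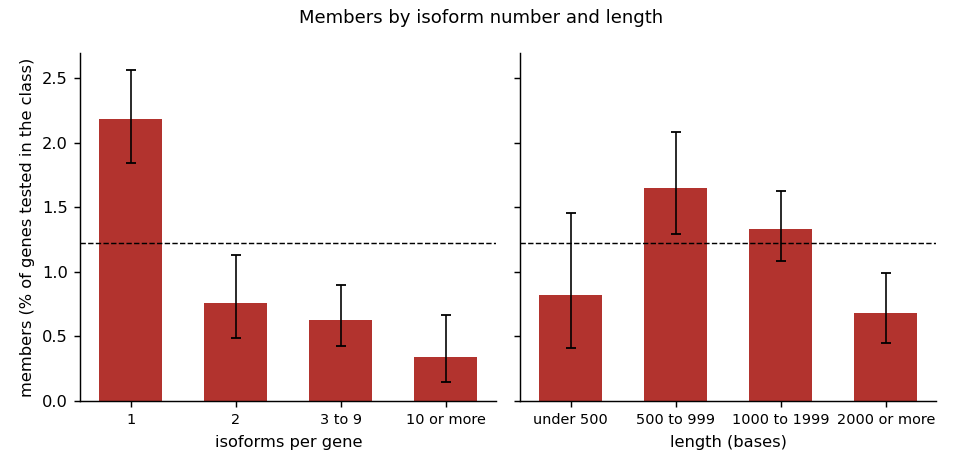
Members as a percentage of the genes past both count minimums, by number of isoforms (left) and by length in bases (right), with exact 95% binomial intervals as bars and the share over all genes, 1.22%, as a dashed line. The single-isoform class stands at 2.18% and each class with more isoforms lies below the dashed line, while the length classes range from 0.680 to 1.65%.

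A fractional expected count arises where reads are divided among several sequences, which for a gene with a single isoform are those of other genes. Of the 144 single-isoform members, 98 had a fractional count in LT and 9 in CK. At an equal LT count the LT share was near that of other genes. Among single-isoform genes with 1000 to 2999 counts in LT, 33 of 50 members (66.0%) and 838 of 1168 genes (71.7%) had a fractional LT count. With 20 to 49 counts in CK, 0 of 52 members and 35 of 591 genes (5.92%) had a fractional CK count, and 0 of 52 is a small number. With 100 to 299 the CK share was higher among members, at 31.25% of 16 against 18.2% of genes, and in the other CK classes it was lower. At an equal mean scaled count the LT share was higher among members in each class and the CK share lower. From 300 to below 1000, the LT shares were 58.7% of members and 46.4% of genes, and the CK shares 1.59% and 33.7%. A member with a near-identical copy may hold reads of that copy, so that values of such members are uncertain by an amount that the files do not give.

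For a member of several isoforms the deposited length is an average over the isoforms weighted by their abundance, so that it differs between libraries where the mix of isoforms differs. The rule did not use this length itself, but a gene gains counts with length, so that choosing by the fold of counts favours genes that are longer in LT. The shares below are for this reason not independent of the choice. Of the 62 multi-isoform members, 16 (25.8%, exact 95% interval 15.5 to 38.5%) had a length at least 1.2-fold different between LT and CK, against 466 of 10291 multi-isoform genes (4.53%). The length was greater in LT for 11 of them, against 2.38% of all multi-isoform genes, and greater in CK for 5, against 2.15%. Few reads in CK make this average imprecise there. Among multi-isoform genes with 50 or more counts in CK, 6 of 23 members (26.1%, 10.2 to 48.4%) and 386 of 9590 genes (4.03%) passed the 1.2-fold limit. With 10 to 19 counts in CK the shares were 4 of 24 members (16.7%, 4.74 to 37.4%) and 14 of 133 genes (10.5%), a difference within counting error. The median ratio of LT to CK length was 1.002 over the 62 members.

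The largest difference of length was that of a gene with 4 isoforms, whose length was 4330 bases in LT and 1104 bases in CK. LT held 8270 counts of it and CK held 52, a fold of 136 by counts, but by TPM it was 124.9 in LT and 3.53 in CK, a ratio of 35.4. The reverse was seen in another gene of 4 isoforms, of 949.9 bases in LT and 1771 bases in CK. This gene had 5628 LT counts and 33 CK counts, a fold of 144, and 423.2 TPM in LT and 1.35 TPM in CK, a ratio of 314. As the correction for length requires, the TPM ratio was below the count fold in 11 of the 11 members that were longer in LT and above it in 5 of the 5 that were longer in CK.

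**Figure D4:**
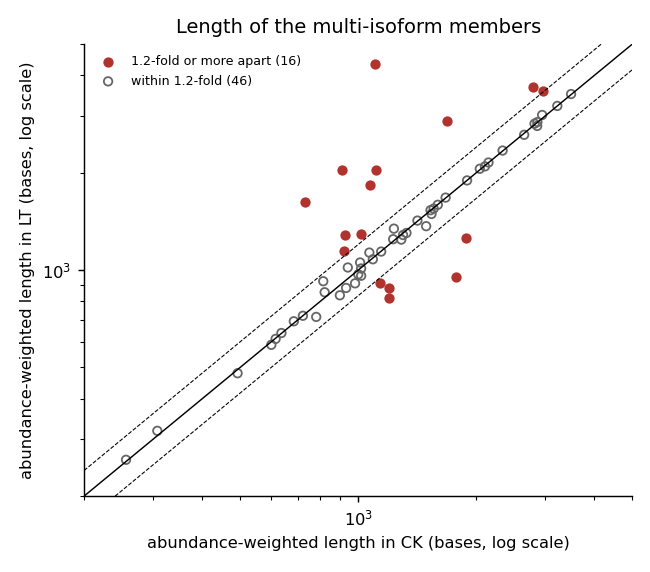
Abundance-weighted length of the 62 multi-isoform members in LT (vertical axis, bases, log scale) and CK (horizontal axis, bases, log scale), with a solid line at equality and dashed lines at 1.2-fold. The 46 open points lie close to equality, and 16 filled points lie outside, 11 of them longer in LT.

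The choice of counts or of TPM mattered little for the other members. The ratio of LT to CK TPM was at least 16 for 203 of the 206 members. Over the 16888 genes, 220 (1.30%) passed this TPM limit below the limit of abundance. The 3 members below 16 had 5, 7 and 32 isoforms, and each was longer in LT, by 1.84-, 2.23- and 1.72-fold. For the 144 single-isoform members the TPM ratio exceeded the ratio of scaled counts by a nearly constant factor. Its median was 1.08, with a lowest value of 1.07 and a highest of 1.14. All members together had 42876 TPM in LT and 915.4 TPM in CK, a ratio of 46.8.

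Some genes share the first part of their number and differ only in the last, and such a group is called a component here. The files do not say what relates the genes of a component. Of the members, 24 (11.7%) belonged to a component with several genes, against 1688 of the 16888. In 2 components both genes were members. In the first, a gene of 1583 bases had 2199 LT counts and 22 CK counts, and its neighbour of 1028 bases had 2178 LT counts and 26 CK counts. In the second, a gene of 650 bases had 1012 LT counts and 14 CK counts, and its neighbour of 667 bases had 878 LT counts and 15 CK counts. Counts within each of these pairs were alike in both libraries. Per length they differed more in the first pair, with 94.8 and 150.0 TPM in LT and 1.01 and 1.91 TPM in CK, than in the second, with 117.6 and 98.97 TPM in LT and 1.72 and 1.78 TPM in CK. Whether such a pair is 2 parts of 1 transcript or 2 similar genes was not tested.

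The 22 components of these members held 25 further genes, which the rule had not chosen. Of the 17 that passed both minimums, 6 were at least 2-fold higher in LT (35.3%). The share was 10.2% of the 1664 such genes in components with several genes, members left out. Over all 16888 genes past both minimums, members included, it was 15.0%. A share of only 17 genes is imprecise. A further 2 of the 17 were at least 2-fold lower in LT (11.8%), against 10.8% of the 1664, and 9 lay within 2-fold. The median log2 fold of the 17 was 0.63, against -0.02 for the 1664 genes. Of the 6 higher genes, 5 were between 8.02- and 11.6-fold higher, below the limit of the rule. The sixth was in the component of c34576.graph_c0 and was 3.95-fold higher, with 2687 counts in LT and 590 in CK. Of the 8 genes not past both minimums, 3 had at least 50 counts in LT and passed 16-fold. They were 1101-, 176- and 34.2-fold higher, from CK counts of 4, 2 and 1, so that these folds are imprecise. The other 5 had under 50 counts in LT. In the component of c37577.graph_c0, the other gene had 12808 counts in LT and 1272 in CK, a fold of 8.73. In LT the member had 639.8 TPM and the other gene 622.3 TPM, while in CK the member had 0.84 TPM and the other gene 65.9 TPM.

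Other components held a member beside a gene of nearly equal level in both libraries. The fourth member by fold, 533-fold higher by counts, shared its component with a gene of 715 counts in LT and 467 in CK, 1.33-fold higher. The most abundant member, of 19790 counts in LT and 831 in CK, had 2 neighbours that differed from each other. The first had 6250 counts in LT and 4 in CK and thus fell below the minimum in CK. The other was lower at low temperature, with 677 counts in LT and 1788 in CK, a log2 fold of -1.60 and the lowest among the 17. Below the minimum in LT, a gene of 852 bases was listed at 0 in LT and had 74 CK counts, beside a member that was 46.9-fold higher. A large fold of a member therefore did not extend to all genes of its component.

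**Figure D5:**
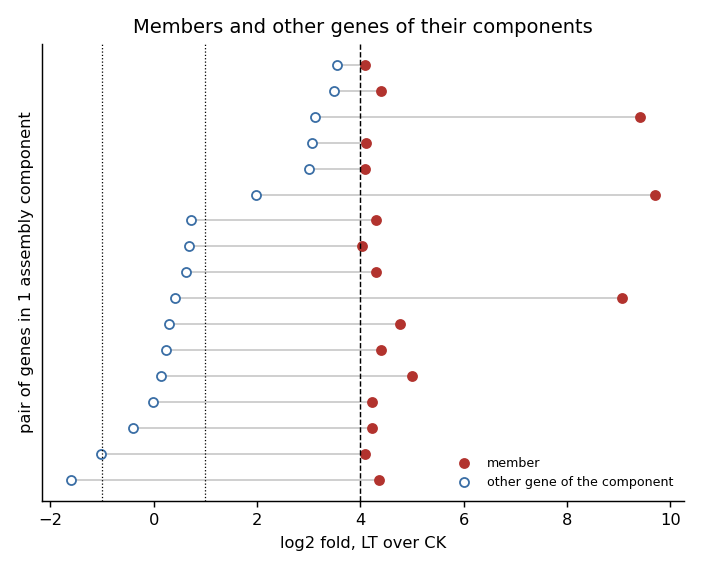
Log2 fold of LT over CK for each of the 17 genes past both minimums that share a component with a member (open points), joined to that member (filled points), with dotted lines at 2-fold in either direction and a dashed line at the 16-fold limit. In 6 pairs the other gene lies beyond 2-fold on the higher side, in 2 beyond it on the lower side, and in 9 between.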

How the data were processed

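The authors deposited expected counts, TPM and FPKM per assembled gene, as named in the file headers. The sources used here name no assembler, aligner or quantification tool. Poly-A RNA went into NEBNext Ultra libraries, per the labels' protocols. TPM, deposited by the authors, served for levels, and their FPKM only for an alternative scaling.

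Expected counts were rounded and LT and CK joined by gene number. TMM sizes came from edgeR 4.0.16 under R 4.3.3, and 1 was added to counts scaled to the mean size before the fold. Intervals are exact (conditional binomial for folds, Clopper-Pearson for shares). Those of folds are for the ratio of scaled counts without the added count. Copies of 1 molecule may be counted apart, which makes intervals too narrow. Other steps used Python 3.11.15 with scipy 1.17.1, numpy 2.4.6, matplotlib 3.10.9 and pandas 2.3.3.

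The members and lists were chosen with earlier results of these data known. As no names were given, identifiers are printed for the 2 highest folds, other members are described by their place in fold, level, length or isoforms, and the planned pathway and cell type lists were not applied. The 1.2-fold limit of length comes from an earlier report on these data.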

Additional observations from a re-analysis of the deposited data

How the results depend on the processing

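With 1 library per condition no library could be left out. No paired analysis was possible because each condition had 1 library. Of 19 alternative counts of members, 15 stayed within 1.5 times 206. A minimum of 200 counts in LT is among the 15, but it could not change the number. The fold limit and the CK minimum already require more, and the lowest LT count of a member was 213. The 5 other scalings (DESeq2 1.42.0 size factors, total count, upper quartile, and FPKM or TPM with 0.1 added) gave 190 to 217, and 187 members were chosen under all of them. No minimum in CK gave 699, a fold limit of 8 gave 396, and one of 32 gave 101. Of 2 alternatives added after the data were seen, members with whole counts in both libraries numbered 60, and 190 were left without the 16 of shifted length. The members' share of LT counts was 3.57% with DESeq2 size factors, 3.62% by total count, 3.44% by upper quartile, 3.59% by FPKM and 3.604% by TPM. Without the CK minimum, the median length was 888 bases and the share of multi-isoform genes was 37.3%, against 30.1% of the 206. These follow from the genes admitted. The 14 alternative log2 folds of the 2 genes given by number ran from 9.45 to 9.78 and from 9.19 to 9.49, all inside their counting intervals, which says little of other genes since these were picked for their folds. Depth limits the CK values of most members, with a median of 32 counts.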

Other observations

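The genes that the minimum of 10 counts in CK left out had a share of single-isoform genes close to that of their class of CK count. Among those at least 16-fold higher in LT with 5 to 9 counts in CK, 49 of 88 (55.7%) had a single isoform, against 105 of all 191 genes of the class with at least 50 counts in LT (55.0%). With 1 to 4 counts in CK it was 125 of 212 (59.0%), against 141 of 240 (58.8%). The genes compared are themselves 46.1% of the class of 5 to 9 counts and 88.3% of that of 1 to 4. The shares could therefore differ little in the class of 1 to 4, and their closeness there is no result. For the 193 genes listed at 0 in CK, of which 120 had a single isoform (62.2%), no such comparison exists, since all of them passed the limit with the added count. The highest LT counts in these 3 classes were 17923, 19566 and 7647.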
